A study of Mus musculus with 18 samples.

Results

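Chromatin accessibility of reprogrammed mouse embryonic fibroblasts was compared between cells given Brn2 and Myt1l and cells given Brn2, Myt1l, Ikzf1 and Ikzf4, in 6 of the 18 samples of the series. Both groups were fibroblasts of the R26-M2rtTA line on a C57BL/6 background, which carries the doxycycline-dependent transactivator at the Rosa26 locus. In both, lentiviral vectors were switched on with doxycycline for 48 h, so the comparison group (BM) already carried Brn2 and Myt1l, and the second group (BM+Ikzf1/4) differed from it by the vectors for Ikzf1 and Ikzf4. Each group had 3 libraries of 50000 nuclei. The labels do not say whether the replicates were separate cultures or embryos, so the tests measure the spread between these libraries, which may be technical. The libraries were read through the peak lists that the authors had called in each one. The lists name no genes, and their coordinates fit the mouse build mm9, of which no annotation was used here. Regions are therefore given by position, without a gene or an exon, and the labelled cell type was not checked against fibroblast markers.

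Brn2 (Pou3f2) is a POU-domain transcription factor of neural cells, and Myt1l is a zinc-finger factor best known for repressing non-neuronal genes in neurons. Ikzf1 (Ikaros) and Ikzf4 (Eos) are zinc-finger factors of the Ikaros family, studied mostly in lymphocytes, which bind DNA as dimers and can recruit chromatin-remodelling and histone-deacetylase complexes such as NuRD. Ikaros family members also act in retinal and cortical progenitors as temporal identity factors, which set the order in which cell types are born. ATAC-seq marks accessible DNA, such as promoters and enhancers, by where the Tn5 transposase can insert. A peak is a stretch with more insertions than its surroundings. Its fold enrichment is the authors' value for how far it stands above the peak caller's background, and its -log10 q is the caller's adjusted significance.

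At the level of whole lists the groups overlapped in most measures, and the third BM library stood apart from the other libraries. BM libraries held 200040, 169646 and 131297 peaks, against 197858, 200383 and 207243 with Ikzf1 and Ikzf4. The median peak was 469, 483 and 412 bp wide in BM and 426, 450 and 434 bp in BM+Ikzf1/4. The third BM library therefore had both the fewest and the narrowest peaks, and it also had the smallest share of its peaks on the X chromosome, at 1.86% against 2.57% to 3.03% in the other libraries. The upper 1% of peaks by fold enrichment began at 6.22, 6.20 and 6.49 in BM and at 6.18, 6.06 and 6.03 in BM+Ikzf1/4, with no overlap between groups. The median -log10 q was 2.93, 2.67 and 3.01 in BM and 3.19, 3.07 and 3.29 in BM+Ikzf1/4, again without overlap. Each of these 2 differences had an exact permutation p of 0.1 (two-sided), the smallest possible for 3 libraries against 3, and 0.433 after Benjamini-Hochberg adjustment over 13 summaries. The design could not have passed a threshold of 0.05 for a single measure, and no summary had a smaller p. With only peaks at -log10 q of at least 5, the difference in the median -log10 q turned from 0.315 to -0.353.

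To compare strength and width over the same places, peaks of the 6 lists that overlapped were joined into 320310 regions on chromosomes 1 to 19, X and Y. Of these, 76750 (24.0%) were held by every list, and they are called shared regions here. Shared regions took up 40.8%, 47.6% and 62.3% of the peaks of the BM libraries and 41.8%, 40.6% and 39.9% of those of the BM+Ikzf1/4 libraries. Over the shared regions, median fold enrichment was 3.28, 3.19 and 3.10 in BM and 3.36, 3.29 and 3.35 in BM+Ikzf1/4. All 3 BM+Ikzf1/4 values lay above the BM values (difference 0.144, exact permutation p 0.1, the smallest possible, adjusted 0.433). With only peaks at -log10 q of at least 5, in 18989 shared regions, the direction turned and the difference was -0.018. The median covered length of a shared region was 841, 786 and 592 bp in BM and 730, 757 and 783 bp in BM+Ikzf1/4. The means of 740 ± 131 and 757 ± 26.5 bp (SD, n = 3) differed by less than the spread between BM libraries (exact permutation p 1). Without the third BM library this difference turned from 17 to -56.8 bp.

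**Figure D1:**
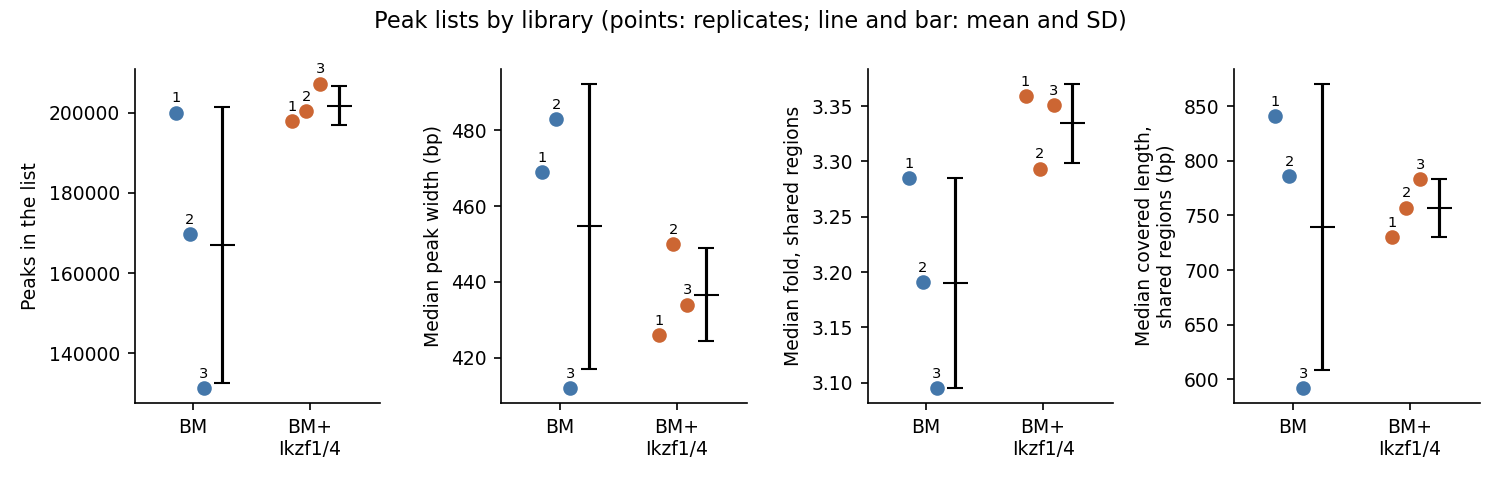
Peak number, median peak width (bp), median fold enrichment over shared regions and median covered length of shared regions (bp) in each library, with the replicate number at each point and the mean and SD beside each group; axes do not start at 0. The third BM library is the lowest in all 4 panels, and only the shared-region fold separates the groups, at 3.10 to 3.28 against 3.29 to 3.36.

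Libraries of the same group were more alike in the strength of single regions than libraries of different groups. Each region's log2 fold enrichment was taken relative to the median shared region of its library. Across the 76750 shared regions these values correlated at 0.823 to 0.858 (Pearson) among BM libraries and at 0.842 to 0.852 among BM+Ikzf1/4 libraries, but at 0.609 to 0.663 between groups. These correlations are across regions, which are not independent replicates. For covered length they were 0.661 to 0.803 and 0.811 to 0.811 within groups and 0.526 to 0.642 between them, so the lowest value within BM lay close to the highest between groups.

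Strength changed in both directions. With Ikzf1 and Ikzf4 added, limma called 7523 shared regions higher (9.8%) and 9042 lower (11.8%), at a Benjamini-Hochberg adjusted p under 0.05 over all shared regions. Together these were 16565 regions (21.6%). With only peaks at -log10 q of at least 5, 2122 of 18989 shared regions were called (11.2%), 1080 higher and 1042 lower. At an unadjusted p under 0.05 there were 26862. The median difference was 0.47 on the log2 scale among raised regions and -0.45 among lowered ones, ratios of 1.38 and 1.36. A difference over 1 on the log2 scale was reached by 52 raised and 49 lowered regions. The groups did not overlap in 7211 of the raised and 8667 of the lowered regions, set against 16.4% (higher) and 21% (lower) of all shared regions without overlap. The balance of directions depended on the scaling: 45.4% of called regions were higher as given, 64.0% without any scaling between libraries (10148 higher, 5709 lower) and 50.9% after quantile normalization (8085 higher, 7803 lower). Without the second BM+Ikzf1/4 library limma called 5246 higher and 5962 lower and kept 10650 of the 16565 calls, the fewest of the 6 omissions. Without the third BM library it called 6422 higher and 7158 lower and kept 12109.

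**Figure D2:**
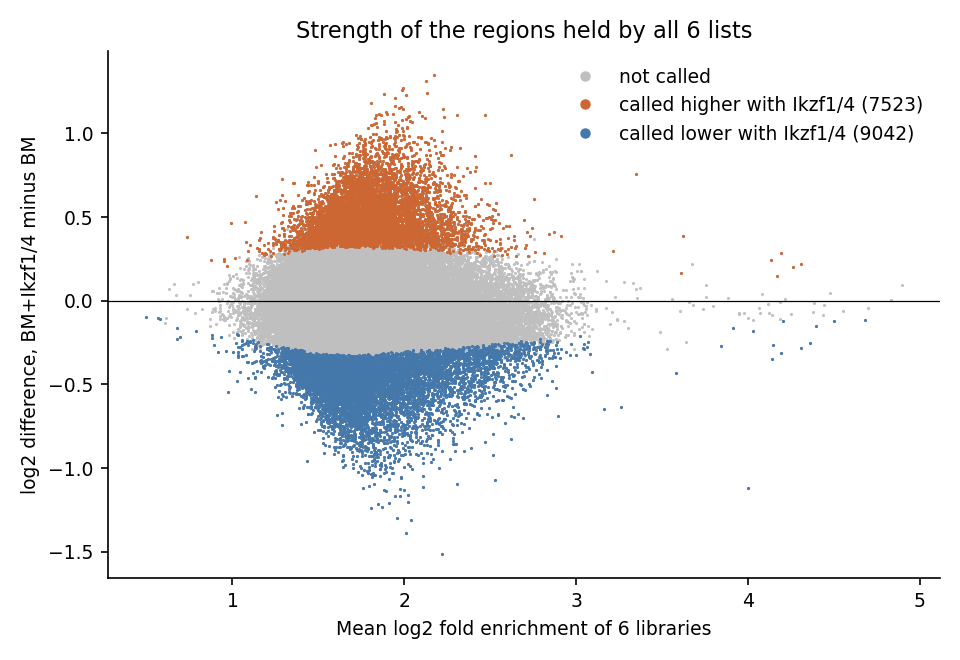
Each point is 1 of the 76750 shared regions, with its mean log2 fold enrichment over 6 libraries (x axis) against the log2 difference of BM+Ikzf1/4 minus BM after median scaling (y axis), and regions past the limma threshold in colour. Called regions lie on both sides of 0, with 7523 above and 9042 below it, and none exceeds 1.51 on the log2 scale.

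The most raised regions went from weak to strong peaks. Region H1, on chromosome 6 from 136862882 to 136863536, had a fold enrichment of 2.91, 2.45 and 2.96 in the BM libraries and 7.07, 6.78 and 8.37 with Ikzf1 and Ikzf4. H1 and the other regions named for a rise or fall in strength were chosen among those called without overlap, so their separation and their p describe the choice and are no added support. The log2 difference of H1 was 1.35 (SE 0.12, limma adjusted p 2.19e-06). Region H3, on chromosome 2 from 103119961 to 103120743, had the tightest values with Ikzf1 and Ikzf4, 6.29, 6.34 and 6.34, against 2.78, 2.40 and 2.34 in BM. Its log2 difference was 1.27 (SE 0.11, limma adjusted p 2.19e-06). Region H5, on chromosome 1 from 154503239 to 154503694, rose from 2.65, 2.84 and 2.87 to 6.69, 7.20 and 6.79 without a change of width that passed the test. It covered 285 ± 86.4 bp in BM and 311 ± 49.9 bp with Ikzf1 and Ikzf4 (SD, n = 3, limma adjusted p 0.883 for width). In all 3 regions every BM fold was below the median shared region of its library, and every BM+Ikzf1/4 fold was above that of its own.

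The 10 most raised regions at or above the median shared strength (H1 to H10) lay on 8 chromosomes. Their mean fold was 2.28 to 2.79 in BM and 5.40 to 7.40 in BM+Ikzf1/4. H2, on chromosome 11 from 59170820 to 59171405, had the second largest rise, from 2.47, 3.25 and 2.48 to 6.83, 6.36 and 8.07. Only H1 and H7 of the 10 also passed the test for width, both wider, set against 2.82% of all shared regions called wider. H7, on chromosome 7 from 118000423 to 118001241, covered 313, 329 and 230 bp in BM and 775, 690 and 747 bp with Ikzf1 and Ikzf4 (log2 difference 1.31, SE 0.25, limma adjusted p 0.0237).

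The most lowered regions went from strong to weak peaks. Regions named in either direction had to be held by every list, so their weaker group kept a called peak in each library. The similar level of the weaker group in raised and lowered regions depends on this choice. Region L1, on chromosome 16 from 7026856 to 7027813, had a fold enrichment of 8.13, 7.95 and 7.01 in BM and 2.94, 3.18 and 2.38 with Ikzf1 and Ikzf4. It had the largest difference of any shared region in either direction, -1.51 on the log2 scale (SE 0.12, limma adjusted p 1.35e-06). Region L3, on chromosome 11 from 104534785 to 104535483, fell from 6.50, 6.50 and 6.04 to 2.61, 2.42 and 3.02 and narrowed from 652 ± 61.2 to 261 ± 22.5 bp (SD, n = 3, limma adjusted p 0.0233 for width). Region L6, on chromosome 4 from 24691483 to 24692611, fell from 5.56, 5.27 and 5.63 to 2.45, 2.69 and 2.22. Its covered length went from 1109, 1047 and 821 bp to 339, 249 and 340 bp (limma adjusted p 0.0130 for width). The 10 most lowered regions (L1 to L10) lay on 8 chromosomes, with mean folds of 5.30 to 7.70 in BM and 2.33 to 2.83 in BM+Ikzf1/4. Of these, 5 also passed the test for width, all narrower, set against 3.13% of all shared regions called narrower. None of these 20 regions lost its call or its direction under the alternatives in which it was tested. They were not tested with only peaks at -log10 q of at least 5, where none would remain a shared region. The -log10 q of H1 to H10 was at most 3.87 in BM, and that of L1 to L10 at most 4.22 in BM+Ikzf1/4.

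**Figure D3:**
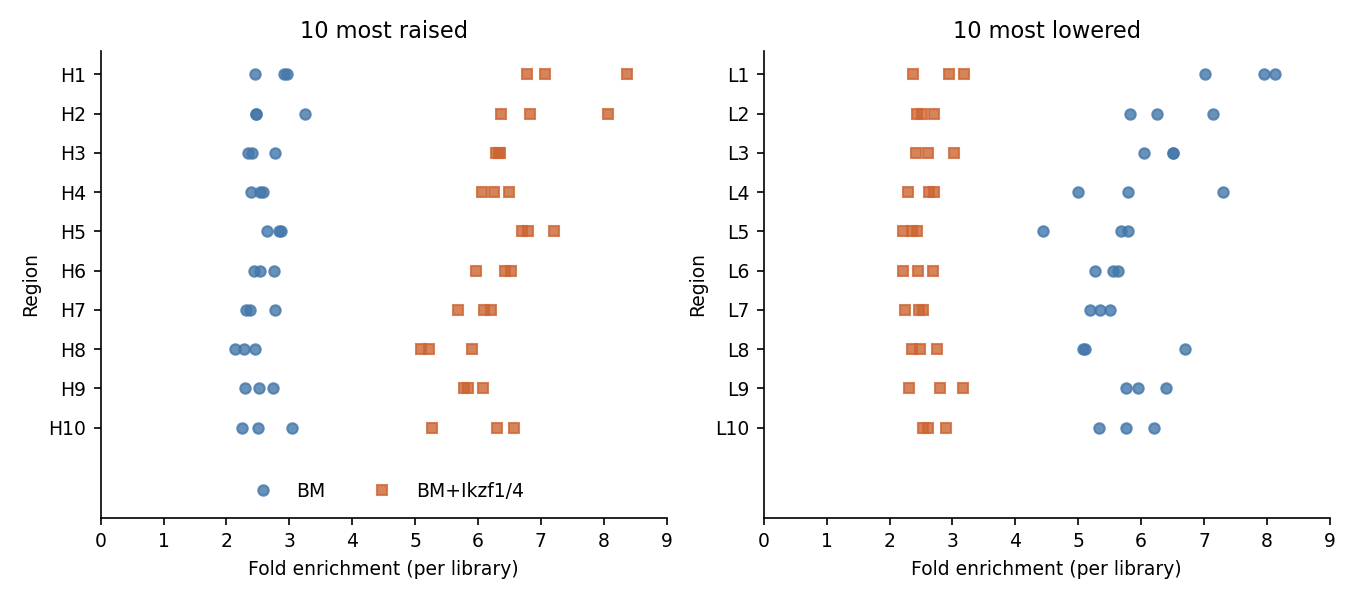
Fold enrichment in each of the 6 libraries (x axis) for the 10 most raised shared regions (H1 to H10, left) and the 10 most lowered (L1 to L10, right), BM as circles and BM+Ikzf1/4 as squares. Values are at most 3.25 in 1 group and at least 4.44 in the other; regions were chosen among those whose groups do not overlap.

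Among 5 classes of strength, raised regions were most frequent in the class below the strongest, and among 5 classes of covered length, calls were least frequent in the widest. By mean strength, in classes of equal size, the raised share was 3.05% in the weakest class, 14.0% in the middle class, 15.6% in the class above it and 8.23% in the strongest. The lowered share was 8% in the weakest class and 14.1% in the strongest. Which direction prevailed in a class depended on the scaling: without scaling the weakest class was 6.56% raised and 4.18% lowered, and the strongest 10.8% and 8.71%. Without scaling, after quantile normalization and after cyclic loess normalization, the raised share was still largest in the class below the strongest, at 14.9% to 19.2%. A weak region entered these classes only where all 6 lists held it. In 5 equal classes of covered length, regions near 556 bp were raised in 13.2% and lowered in 13.6% of cases. The widest class, near 1526 bp, was raised in 4.53% and lowered in 7.77%. The median SE of the difference was 0.121 and 0.115 in these 2 classes, while the SD of the differences was 0.322 and 0.210. These shares are descriptions and were not tested.

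**Figure D4:**
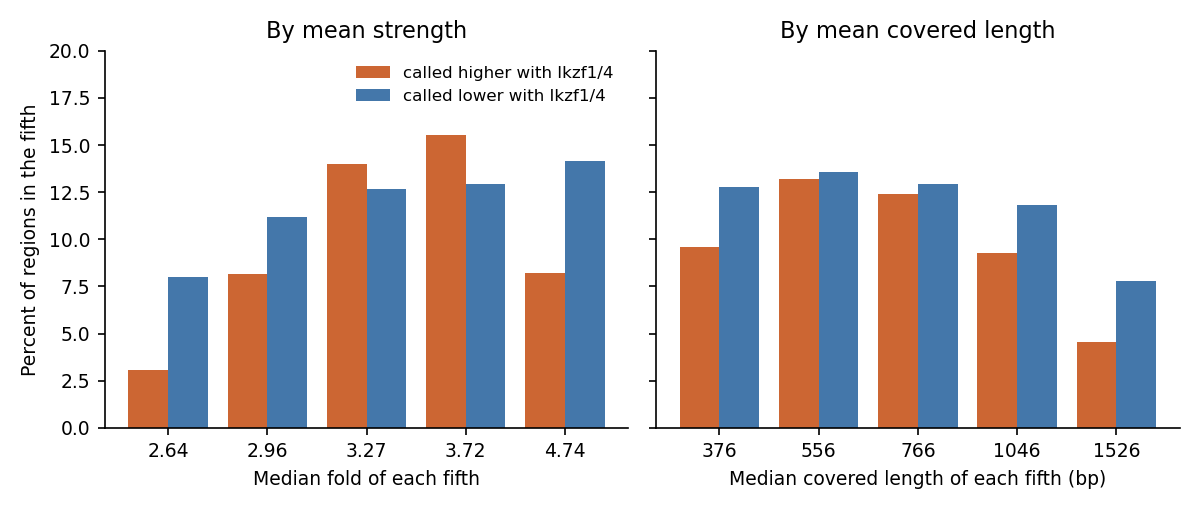
Percent of shared regions called higher or lower with Ikzf1 and Ikzf4 in 5 equal classes of mean fold enrichment (left) and of mean covered length in bp (right), with the median of each class on the x axis. The raised share peaks at 15.6% in the class below the strongest, and among the classes of covered length both shares are smallest in the widest, at 4.53% and 7.77%.

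The strongest regions differed little in fold. The 12 shared regions of highest mean fold outside chromosome 18 had mean folds of 20.9 to 28.3 in BM and 19.2 to 31.5 in BM+Ikzf1/4. The strongest of all, T1 on chromosome 17 from 68090293 to 68090872, had 30.4, 25.4 and 28.9 in BM and 31.3, 30.9 and 32.1 with Ikzf1 and Ikzf4. T2, on chromosome 2 from 57481902 to 57482137, had 27.2, 27.9 and 28.5 against 29.4, 28.8 and 29.6, a scaled log2 difference of 0.01 (SE 0.03, limma adjusted p 0.91). Of these 12 regions 4 passed the test, all of them lower, but 3 of these calls (T4, T6 and T10) were lost without scaling, after quantile normalization and after cyclic loess normalization. T7 was instead called higher under these 3 scalings, and T1 without scaling. Only T12, on chromosome 2 from 5300089 to 5300429, was called lower under all of them, with folds of 22.8, 23.0 and 20.1 in BM and 19.3, 19.5 and 18.8 with Ikzf1 and Ikzf4 (log2 difference -0.25, limma adjusted p 0.000335). It too lost its call when the spread was not fitted as a trend with the mean. Most of them had the same edges in every library: in 11 of the 12 both edges agreed to within 10 bp over the 6 lists, which held for 50 of the 64327 shared regions with a single peak per list (0.0777%). T2 was 236 bp wide in all 6 libraries. The exception was T1, which covered 574 bp in BM replicate 2 and 165 to 171 bp in the other 5 libraries. Of the 63 shared regions with a single peak per list and a mean fold of at least 10, 38 had coinciding edges. Over all 64327, the median of the mean fold was 16.2 in regions with coinciding edges and 3.33 in the others. The strongest regions were thus unlike most shared regions in their edges. No filter for repeats or poorly mapped sequence was applied here. Whether these regions are accessible chromatin was not tested.

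Fewer regions were called for width than for strength, and the calls depended on single libraries. The measures differ in precision, with a median SE of 0.286 on the log2 scale for width and 0.118 for strength, so the counts do not compare how often each changed. Without a test, the groups did not overlap in 29.0% of shared regions for width and in 37.4% for strength. limma called 2166 shared regions wider (2.82%) and 2400 narrower (3.13%) with Ikzf1 and Ikzf4, 5.95% in all, and 17532 at an unadjusted p under 0.05. The median differences were 1.47 and -1.46 on the log2 scale, ratios of 2.77 and 2.74 in the length covered by called peaks. This length depends on where the caller placed the edges of peaks and joined stretches into 1 peak, and its settings are not stated. Whether the accessible DNA itself became longer or shorter was not tested. All of them had groups that did not overlap, as had 14.3% (wider) and 14.7% (narrower) of all shared regions. With only peaks at -log10 q of at least 5, 669 of 18989 shared regions were called for width (3.52%). Leaving out 1 library at a time gave 369 to 2345 wider and 680 to 2142 narrower regions. The counts fell to 386, 369 and 612 wider and 680, 711 and 1134 narrower without BM+Ikzf1/4 library 1, 2 and 3. Without the first and the second BM library they were 1250 and 1206 wider and 827 and 808 narrower, and without the third BM library 2345 and 2142.

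Over all shared regions, the largest called widening was 3.67 and the largest narrowing 3.35 on the log2 scale. The regions named for width are the 5 most widened (WH1 to WH5) and 5 most narrowed (WL1 to WL5) among those whose mean of the 6 folds was at or above the median shared region, outside chromosome 18. WH5 fell below the median when mean log2 fold was used in its place. All 10 regions were chosen among those called for width without overlap, so their separation and their width p are no added support. WH1, on chromosome 11 from 54882500 to 54883615, covered 146, 152 and 176 bp in BM and 1062, 950 and 1017 bp with Ikzf1 and Ikzf4 (log2 difference 2.63, SE 0.30, limma adjusted p 0.00907). Its fold was 3.27 ± 0.234 and 4.18 ± 0.238 (SD, n = 3), a scaled difference that did not pass the test (limma adjusted p 0.0805). WH5, on chromosome 11 from 87807063 to 87808362, went from 219, 266 and 133 bp to 1091, 1299 and 1191 bp and also gained strength, from 2.28 ± 0.0303 to 4.32 ± 0.545 (SD, n = 3, limma adjusted p 0.000141). Among narrowed regions, WL1 on chromosome 1 from 174548524 to 174550586 went from 2063, 1402 and 1920 bp to 276, 194 and 175 bp. Its fold was 3.34 ± 0.185 and 3.42 ± 0.415 (SD, n = 3, limma adjusted p 0.867). WL2, on chromosome 13 from 53918254 to 53920229, narrowed from 1075, 1976 and 1742 bp to 165, 187 and 258 bp and weakened from 5.06 ± 0.383 to 2.48 ± 0.218 (SD, n = 3, limma adjusted p 1.31e-05). Of the 10 regions named for width, 4 passed the test for strength, set against 21.6% of all shared regions.

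Strength and width moved in the same direction more often than not, although few regions passed both tests. Raised regions had a median covered length of 665, 628 and 429 bp in BM and 717, 726 and 756 bp in BM+Ikzf1/4, and 70.4% of them were wider relative to their library. Lowered regions covered 811, 767 and 672 bp in BM and 569, 617 and 651 bp in BM+Ikzf1/4, and 32.8% of them were wider. Among regions not called for strength 48.2% were wider. Of the raised regions, 485 (6.45%) were called wider and 198 (2.63%) narrower. Of the lowered regions, 562 (6.22%) were called narrower and 130 (1.44%) wider. Over all shared regions, 2.82% were called wider and 3.13% narrower. Regions whose strength was not called made up 78.4% of all shared regions, and they held 71.6% of the widened and 68.3% of the narrowed ones. Both measures come from the same peaks, so they are not independent.

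**Figure D5:**
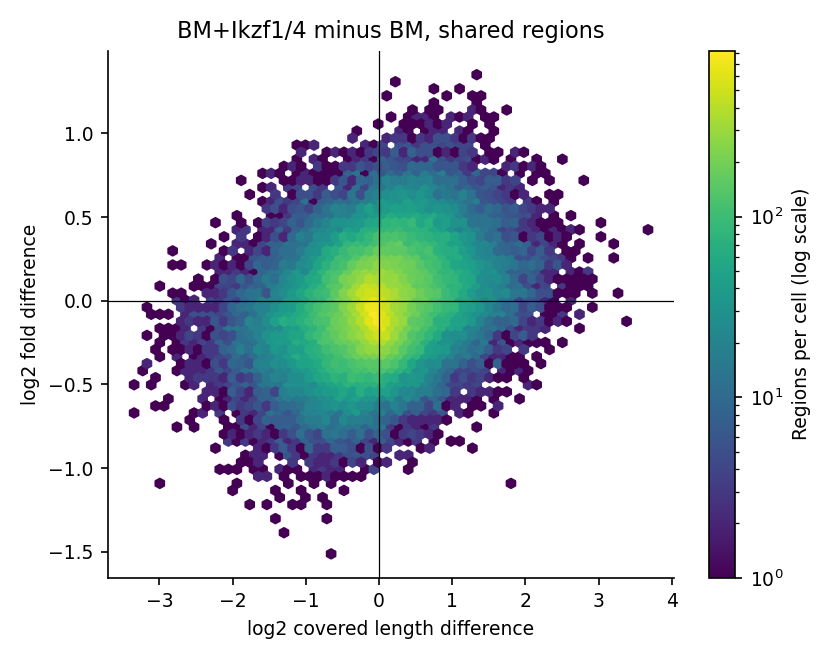
Shared regions by their log2 difference in covered length (x axis) and in fold enrichment (y axis), BM+Ikzf1/4 minus BM after median scaling; the colour of each hexagon gives the number of regions on a log scale. Differences in covered length reach beyond 3 on the log2 scale while those in fold stay within 1.51, and the cloud tilts towards wider with stronger.

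Regions held by only some of the lists followed a graded order, which a fixed limit for calling a peak would also give. Those in 1, 2 and 3 BM+Ikzf1/4 lists and no BM list had median folds of 2.35, 2.45 and 2.73. Those in 1, 2 and 3 BM lists and no BM+Ikzf1/4 list had 2.33, 2.48 and 2.74. By presence alone, 30254 regions were in all 3 BM+Ikzf1/4 lists and no BM list, and 11751 in all 3 BM lists and no BM+Ikzf1/4 list. Presence chose these and the other classes of this paragraph, so their strengths are descriptions. Without the third BM library, the shortest list, the regions held by BM alone numbered 24757, against 11751, and those held only with Ikzf1 and Ikzf4 31456. Leaving out a library asks for presence or absence in fewer lists, so these counts could only rise. Without the first and the second BM library, the regions held by BM alone numbered 12800 and 15564. With lists of equal length, the regions held only with Ikzf1 and Ikzf4 numbered 17483 and those held by BM alone 15642, so the difference between the groups was much smaller. A further 15099 regions were in all 3 BM+Ikzf1/4 lists and 1 BM list, with median folds of 2.36 in BM and 2.82 in BM+Ikzf1/4. The 22609 in all 3 and 2 BM lists had 2.54 and 2.89. In the opposite direction, 6159 regions were in all 3 BM lists and 1 BM+Ikzf1/4 list (2.80 in BM, 2.40 in BM+Ikzf1/4) and 7998 in 3 and 2 (2.85 and 2.50). Regions exclusive to 1 group were mostly weak and narrow. Those held only with Ikzf1 and Ikzf4 had a median fold of 2.73 over 372 bp, and those held only by BM 2.74 over 394 bp, whereas shared regions had 3.19 in BM and 3.33 in BM+Ikzf1/4. A mean fold at or above the median shared region (3.27) was reached by 4664 of the exclusive BM+Ikzf1/4 regions (15.4%) and 1797 of the exclusive BM regions (15.3%).

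The strongest exclusive regions were of 2 kinds. Among the 12 of highest mean fold outside chromosome 18, 11 were held only with Ikzf1 and Ikzf4 and 1 only by BM. Of all exclusive regions, 30254 were held only with Ikzf1 and Ikzf4 and 11751 only by BM. On chromosomes 10 and 11 lay 6 of the 12, all held only with Ikzf1 and Ikzf4. P1, on chromosome 11 from 11648312 to 11648580, had folds of 17.4, 16.5 and 15.2, and P2, on chromosome 11 from 11654004 to 11654183, had 14.7, 13.2 and 12.9. P3, on chromosome 10 from 128078104 to 128078372, had 9.74, 9.23 and 10.2. The edges of these peaks were nearly the same in each library. P1 was 269 bp and P5 (chromosome 11 from 11668907 to 11669801) 895 bp wide in all 3 lists, with identical starts and ends. P2 was 180, 177 and 178 bp wide, P3 268, 267 and 269 bp, and P6 (chromosome 10 from 128077195 to 128077370) 175, 173 and 176 bp. P4 (chromosome 10 from 128071127 to 128071853), at 711, 722 and 720 bp, varied by 16 bp at its start and 7 bp at its end. Coinciding edges within 10 bp held for 145 of 29605 exclusive BM+Ikzf1/4 regions with a single peak per list (0.490%). Among exclusive BM regions, also over 3 lists, they held for 18 of 11511 (0.156%). In RefSeq's gene table for GRCm38.p6, Ikzf1 is on chromosome 11 and Ikzf4 on chromosome 10, but positions of that build were not set against these lists. Reads from a vector that carries a gene and reads from its chromosomal copy cannot be told apart in peak lists.

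In P7 to P12, the other 6 of the strongest exclusive regions, at least 1 edge varied by 52 bp or more between the lists that held the region. P9 varied by 244 bp at its start, and P12 by 12 bp at its start and 574 bp at its end. The highest was P7, on chromosome 7 from 28162570 to 28163025, the only one held by BM alone. Its folds were 6.66, 7.61 and 5.75, over 456, 412 and 376 bp. P8, on chromosome 3 from 93197822 to 93198706, was held only with Ikzf1 and Ikzf4, at 6.62, 7.00 and 5.98 over 817, 741 and 851 bp. The -log10 q of P8 to P12 was 12.4 to 27.7 in the lists that held them, while that of P1 to P6 was 77.1 to 357.

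Changed regions were spread over the genome. On autosomes, 8.45% to 11.6% of shared regions of a chromosome were raised and 10.6% to 13.1% lowered. On the X chromosome 5.40% of 1259 shared regions were raised and 10.6% lowered (7.94% and 6.59% without scaling), and the SD of the differences was smaller there (0.239) than over all shared regions (0.282). Shared X regions lay below the median region of their library by similar amounts in BM (-0.07, -0.08 and -0.10 on the log2 scale) and in BM+Ikzf1/4 (-0.10, -0.10 and -0.09). Of 2083 windows of 1 Mb with at least 20 shared regions, 1904 held both raised and lowered regions. The median window had 9.30% raised and 11.4% lowered regions. Among windows outside chromosome 18, the largest raised share was on chromosome 9 from 25000001 to 26000000, with 9 of 26 regions raised and none lowered. The largest lowered share among them was on chromosome 4 from 13000001 to 14000000, with 10 of 26 lowered and 1 raised. These windows were chosen for their values and carry no test.

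Neighbours within 2 kb were more often called in opposite directions than in the same one. Where the nearest shared region of a raised region lay within 2 kb, it was lowered in 17.6% and raised in 7.24% of 995 cases. For lowered regions with such a neighbour, it was raised in 16.3% and lowered in 6.37% of 1099 cases. Over all 10475 regions with a neighbour that near, it was raised in 9.57% and lowered in 10.4%. The differences of the pairs correlated at -0.146 (Pearson, across regions, with each close pair often counted from both sides). At 2 to 10 kb, with 31962 regions, the correlation was -0.009. Neighbours of raised regions were raised there in 11.1% and lowered in 12.9%, and those of lowered regions in 10.1% and 11.2%. At 10 to 50 kb the correlation was 0.030, and neighbours of raised regions were raised in 10.8% and lowered in 12.1%. Fold is set against the caller's background, which the lists do not give, so folds of close neighbours may not be independent. Of the 6368 BM-only regions with a shared region within 10 kb, the nearest was raised in 13.2% and lowered in 10.1%. Of the 13663 exclusive BM+Ikzf1/4 regions with one, it was raised in 10.8% and lowered in 11.8%, close to the shares over all shared regions. These shares and correlations are descriptions and were not tested.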

How the data were processed

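The authors deposited 1 peak list per ATAC-seq library, made with Bowtie2 and MACS2 per the submitters' processing notes, with no version or setting stated. The notes name mm9 and mm10. Names such as chrUn_random and peaks up to position 197160924 of chromosome 1 fit mm9. In the deposited lists, values are the fold enrichment of a peak (a ratio), -log10 p and -log10 q, and a score that is 10 times the -log10 q. The lists have 9 columns, the layout of broad peaks, and hold no summits, so the planned comparison of summits was not run. Peaks are not counts, so read depth is unknown and no interval for it is given. The lowest -log10 q was 1.00.

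Peaks overlapping by 1 bp were merged on chromosomes 1 to 19, X and Y, leaving out 0.318% to 0.446% of peaks on other sequences. A region's value was its highest fold or its covered length, in log2 minus the library's median over shared regions. limma 3.58.1 (R 4.3.3, trended spread, all 6 libraries) used a threshold of 0.05. Agreement of edges, 1 Mb windows and the robust spread were chosen after seeing the data. Single measures had two-sided exact permutation tests. Regions named were the 12 strongest shared, the 12 strongest in 1 group only, and, among called regions without overlap and of at least median strength, the 10 most raised and lowered and 5 most widened and narrowed. Regions on chromosome 18 were counted but not named. Members and lists were chosen with earlier results of these data known. Genes, motifs and sequences need an mm9 genome and were not analysed here.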

Additional observations from a re-analysis of the deposited data

Results flagged for a closer look

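The sequence chrY_random, assigned to the Y chromosome without a known position, was outside the chromosomes compared in the report. Its peaks numbered 172, 229 and 220 with Ikzf1 and Ikzf4 (mean 207) against 138, 84 and 74 in BM. All 3 values were above those of BM. Per 100000 peaks of a list they were 86.9, 114 and 106 against 69.0, 49.5 and 56.4. Their median fold was 2.43, 2.39 and 2.45 with Ikzf1 and Ikzf4 and 2.39, 2.50 and 2.58 in BM. Peaks on the Y chromosome itself numbered 66, 68 and 79 against 56, 39 and 30. The labels give no sex for the fibroblasts, and the difference was not tested.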

How the results depend on the processing

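The cause of a changed count was not tested. For strength, raised and lowered regions numbered 4918 and 5102 at or above the median strength (fewer regions tested), 1080 and 1042 with peaks at -log10 q of at least 5 (fewer regions tested, and a smaller share of them called, 11.2% against 21.6%), and 3033 and 3195 with a log2 difference over 0.5. Without scaling 5709 were lowered. Leaving out 1 library gave 5246 to 6422 raised and 5962 to 7279 lowered. For width, the counts were 1262 and 1332 at or above the median strength, 325 and 344 at -log10 q of at least 5 (3.52% called against 5.95%), and 1429 narrower without scaling. Leaving out 1 library gave 369 to 2345 wider and 680 to 2142 narrower. The robust spread, added after the data were seen, gave 7454 raised and 9012 lowered. Regions named for a change in strength or width kept direction and call wherever they were tested, except WH3 (log2 width difference 2.60), which lost its call without scaling and without the third BM or any 1 BM+Ikzf1/4 library. Among the 12 strongest shared regions, log2 differences changed sign for T3 (0.020), T5 (0.0032) and T8 (0.041) without scaling, for T2 (-0.033), T5 (0.045) and T8 (0.064) after quantile normalization, for T3 (0.0015), T8 (0.045) and T11 (0.0028) after cyclic loess, and for T5 (0.166) with -log10 q in place of fold. Leaving out 1 library gave -0.032 to 0.043 for T2 and -0.116 to 0.0093 for T11, with the sign changed in both without the first BM library. The tests of named regions were not followed into the lists with -log10 q of at least 5. Every H and L region was below 5 in each library of the group with the lower fold. Every WH and WL region was below 5 in at least 1 library, so none of these regions would remain shared. T1 to T12 had a -log10 q of at least 114 in every list.

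The replicate block called 7282 raised and 8629 lowered, and 2010 wider and 2215 narrower. Same-numbered libraries did not deviate together (correlations of -0.04 to -0.01 for strength, -0.03 to 0.01 for width), so the numbers were not taken as pairs.

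List differences (BM+Ikzf1/4 minus BM) changed sign in these cases. With the same number of peaks from each list, median width differed by 24.3 bp, the start of the widest 10% by 18 bp and the X share by -0.023 percentage points. At -log10 q of at least 5, the median fold differed by -0.068, the start of its upper 10% by -0.254, the median -log10 q by -0.353, and over shared regions median fold by -0.018, covered length by -1 bp and -log10 q by -0.089. Leaving out 1 library gave -0.031 to 0.084 for the start of the upper 10% of fold, -0.011 to 0.576 percentage points for the X share and -56.8 to 67.7 bp for covered length. At -log10 q of at least 5, shared, gained and lost regions numbered 18989, 11030 and 3378. Gained regions numbered 17483 with equal lists. Leaving out 1 library gave 77703 to 94607 shared, 31456 to 39882 gained and 12800 to 24757 lost regions, the last without the third BM library.

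The peak lists carry no read counts, so the precision of a single fold is not known. A region missing from a list is not shown to be closed.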
